A study of Mus musculus with 18 samples.

Results

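Mitosis and kinetochore genes encode the machinery that separates duplicated chromosomes: cyclins and kinases that start mitosis, the checkpoint that delays it, the kinetochore that couples chromosomes to microtubules, and the motors and scaffolds that finish division. Described here are 46 such genes, taken as every row of the deposited table whose gene symbol is on a list of mitosis and kinetochore genes, out of 19862 rows in all. All 46 were in the table, and all 46 passed the filter on low values (above 0 in at least 3 libraries). The libraries compare cytoplasmic and polysome-bound RNA of murine osteosarcoma cells with and without loss of Prmt1, the main enzyme of asymmetric arginine dimethylation.

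Knockout (KO) cells are Prmt1 f/f cells that stably express CreER and were given 4-hydroxytamoxifen (4OHT), which activates that recombinase. Control cells are the same Prmt1 f/f CreER cells given ethanol, and their labelled genotype is wild type although both groups carry the floxed alleles. The cells descend from tumours of mice with conditional knockout of p53 and Rb on a mixed background, and their labelled age is postnatal day 299. Cycloheximide-treated lysate gave Total RNA, or was separated on a sucrose gradient with fractions under 3 ribosomes pooled as Light and those over 3 ribosomes as Heavy polysome RNA. Each fraction has 3 KO and 3 control libraries. No 4OHT-treated cells without floxed alleles are among them, so effects of 4OHT or of Cre activity cannot be told apart from those of the deletion. Separate cultures are not stated for the libraries of a group, so the p-values reflect just how much these samples vary, and that variation may be technical.

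Mitotic messages accumulate late in the cell cycle, and many are transcribed from promoters that are silenced in resting cells. At each kinetochore, centromere proteins such as CENP-A and CENP-T recruit the NDC80 complex, which grips microtubules. Unattached kinetochores make a checkpoint signal that blocks CDC20, the activator of the anaphase-promoting complex (APC/C), until every chromosome is attached. Dividing tumour cells, osteosarcoma included, depend on this machinery, and several of its genes serve as markers of proliferation.

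Depth was 32.3 to 57.9 M reads a library, and levels are counts per 1000000 reads (CPM), that is, shares of a library. In such bulk samples, fewer cells of a type (here cells in mitosis) and less RNA per cell cannot be told apart. The targeted gene Prmt1 had 147, 176 and 173 CPM in KO Total libraries, against 256, 277 and 285 CPM in control Total libraries, and 64.4, 121 and 145 CPM in KO Heavy libraries, against 412, 378 and 370.1 CPM in control Heavy libraries, with no overlap. In Light RNA, with 166, 229 and 234.5 CPM in KO Light libraries, against 255, 243 and 218 CPM in control Light libraries, the groups overlapped. Of the KO libraries, number 1 deviated most from its group, by a root mean square of 0.209 in Total, 0.241 in Light and 0.339 in Heavy RNA on the log2 scale. Osteoblast markers summed to 6029 to 7857 CPM in KO and 4330 to 6125 CPM in control Total libraries, and 3 of the 10 were under 1 CPM, Ibsp being at 0 in KO cells. The sum hides opposite changes. At a limma adjusted p under 0.05, 4 of the 9 tested were higher and 2 lower in KO Total RNA, against 16.1% and 10.3% of all genes tested. Sp7 was 1 of the lower ones (log2 change -1.46, SE 0.28, limma adjusted p = 0.00104). The 4 higher ones were Alpl (1.52, SE 0.16, limma adjusted p = 4.29e-06), Spp1 (0.81, SE 0.25), Sparc (0.68, SE 0.24) and Bglap (0.22, SE 0.06). Markers of other cell types were low but higher in KO Total libraries: 8 macrophage markers summed to 16.45 to 20 CPM in KO and 6.62 to 8.73 CPM in control, 6 endothelial markers to 3.33 to 3.61 CPM in KO and 0.403 to 0.763 CPM in control, and 6 epithelial markers to 7.14 to 10.2 CPM in KO and 0.718 to 1.37 CPM in control. In Light and Heavy RNA the KO sums of all 4 lists also lay above the control sums. At 0 in every KO Total library were Emr1 and Cldn5, and in every control Total library Ptprc, Emr1, Itgam, Aif1, Tek and Cldn5. The part of these markers in the results was not tested.

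In Total RNA, 13 of the 46 genes were lower in KO than in control cells and none was higher. They span mitotic entry (Cdk1, Ccna2, Ccnb1, Ccnb2), the chromosomal passenger complex (Aurkb, Birc5), the checkpoint and securin (Mad2l1, Pttg1), the kinetochore (Cenpt, Nuf2, Spc24) and the spindle and midzone (Kif11, Racgap1). The call is a limma adjusted p under 0.05 over all 17515 genes tested, of which 10.3% were called lower and 16.1% higher. The median log2 change of the 46 was -0.33 and 45 of the changes were negative, against a median of -0.01 over the 11602 genes averaging 1 CPM or more. Among those 11602 genes, refitted alone, 13.9% were called lower, against 28.3% of the 46, and 17.2% were called higher. In 29 of the 46, or 63.0%, all KO libraries lay below all control libraries, which held for 20.2% of the genes tested. Without control Total library 1 the fit called 7 of the 46, and without KO Total library 1 it called 8. Calls over all genes were not counted in these fits.

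In the polysome fractions the picture was mixed. In Light RNA 8 of the 46 were lower and 9 higher, against 12.7% lower and 26.8% higher of all genes tested, and 18.1% and 34.4% of genes averaging 1 CPM or more. In Heavy RNA 13 were lower and 2 higher, against 10.4% lower and 18.5% higher of all genes tested, and 16.3% and 24.2% of genes averaging 1 CPM or more. By pattern, 6 genes were lower in all 3 fractions (Ccna2, Birc5, Mad2l1, Pttg1, Nuf2 and Spc24), 5 in Total and Heavy RNA (Cdk1, Ccnb1, Ccnb2, Aurkb and Cenpt), 6 were higher in Light RNA alone (Plk1, Bub1b, Bub3, Cdc20, Tpx2 and Prc1), and 22 were called in no fraction. The share of all genes with each pattern was not counted, so the patterns only sort the members. The split in Light RNA depended on the scaling, with 13 lower and 5 higher after quantile normalization and 12 lower and 1 higher after median-of-ratios scaling, which moved the median of all genes by -0.16 and -0.20. Of all genes called in Light RNA, 32.1% were lower in the main fit, and 52.7% and 53.8% after these scalings. In Heavy RNA these scalings gave 15 lower and 2 higher, and 18 lower and 0 higher, with shifts of -0.10 and -0.15. The lower part of all Heavy calls was 35.9% in the main fit, and 50.9% and 55.4% after the scalings. Without control Light library 3, 11 of the 46 were called in Light RNA, and with the 6 Heavy libraries fitted alone, 8 in Heavy RNA. How many of all genes these fits called was not counted.

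Summed over the 46 genes, the messages made up 0.336%, 0.391% and 0.399% of the KO Total libraries, against 0.501%, 0.472% and 0.476% of the control Total libraries. In Light RNA the sum was 0.281%, 0.298% and 0.297% of KO libraries, against 0.337%, 0.314% and 0.332% of control libraries. In Heavy RNA it was 0.416%, 0.427% and 0.400% of KO libraries, against 0.504%, 0.507% and 0.520% of control libraries. Every KO sum lay below every control sum of its fraction.

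**Figure D1:**
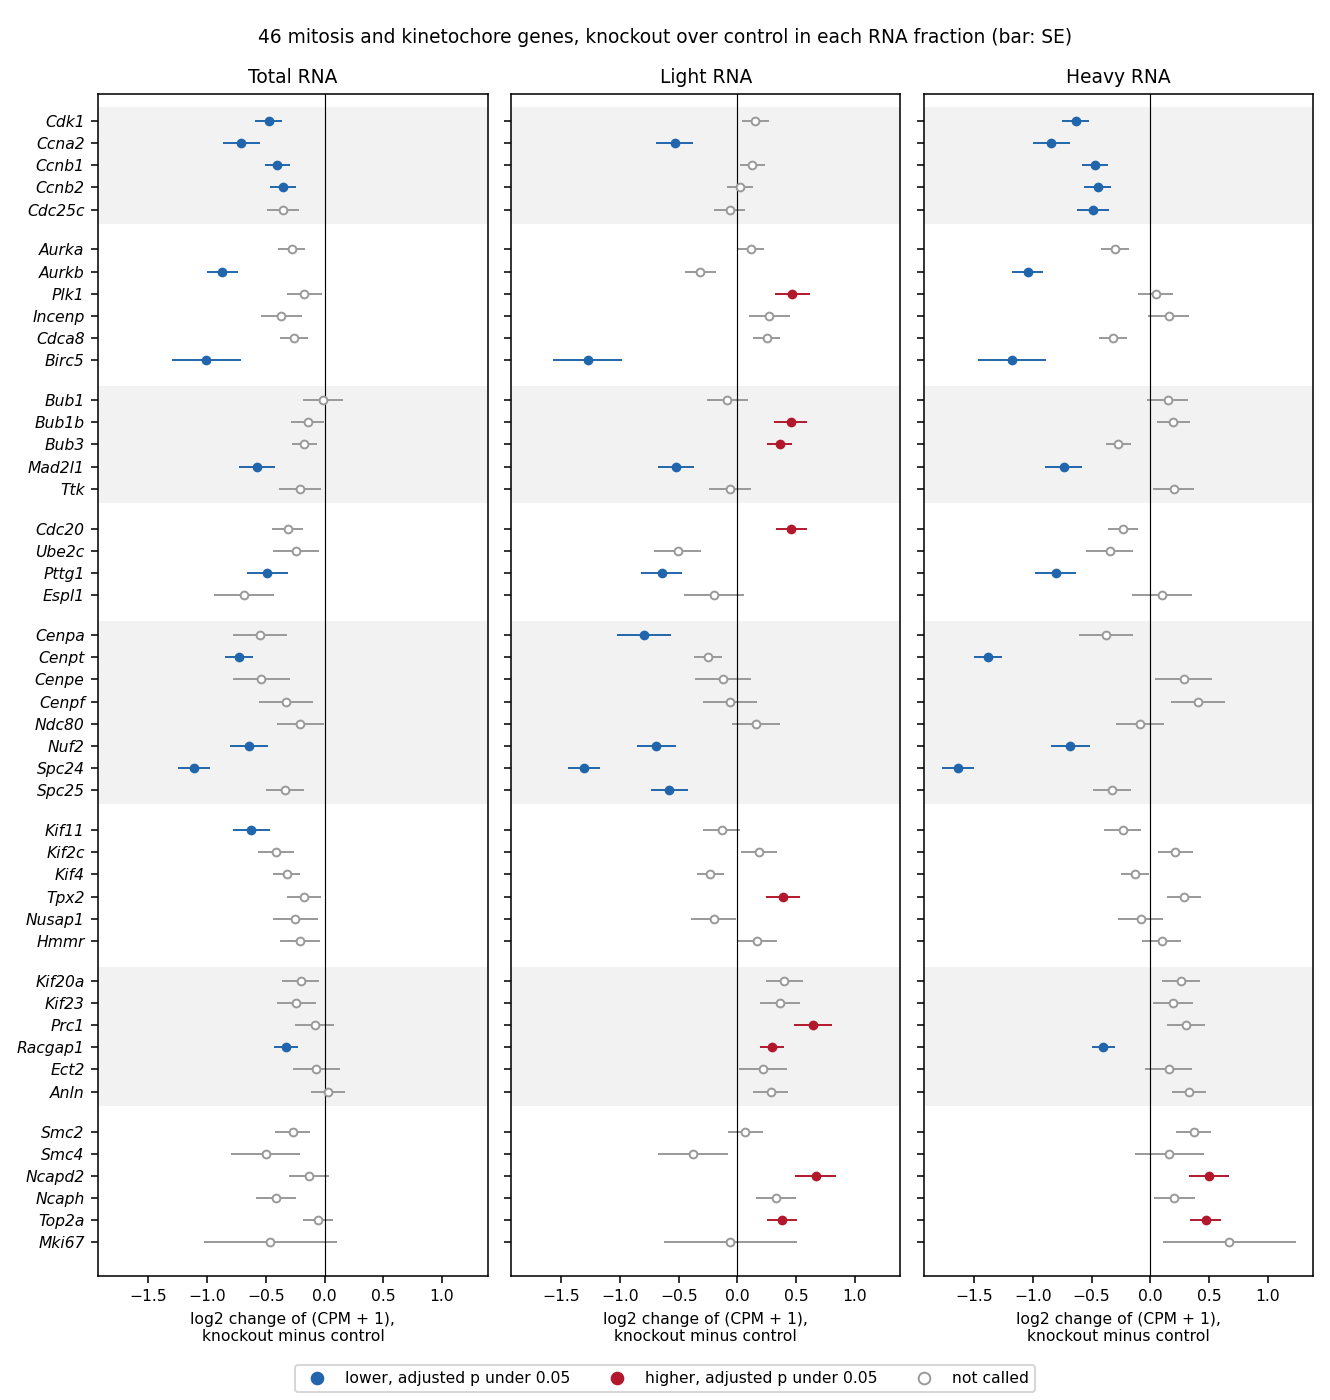
Log2 change of (CPM + 1), KO minus control, of the 46 genes grouped by role, in Total (left), Light (middle) and Heavy (right) RNA. Points are limma estimates with their SE from 3 KO and 3 control libraries, coloured where called lower or higher; 13 were called lower and none higher in Total RNA, 8 lower and 9 higher in Light RNA, and 13 lower and 2 higher in Heavy RNA.

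Since many of these genes were lower together in Total RNA, promoters are shown for the 5 with the lowest p there among members with an entry in the RefSeq promoter table. Known elements of mitotic promoters are the CCAAT box, bound by NF-Y, and the cell cycle homology region TTTGAA or TTCGAA, bound by MuvB complexes that silence these genes in resting cells. Each sequence is the 150 bases before an annotated start, on the strand of the gene (GRCm38.p6, RefSeq). CCAAT and TTTGAA on either strand are in capitals. The start used for Cenpt lies inside the annotated span of its gene (105844669 to 105855086). Bases before the outer end of that span are not shown. Cenpt lies at chr8:105852009-105852158 (minus strand), Cdk1 at chr10:69352913-69353062 (minus), Nuf2 at chr1:169531465-169531614 (minus), Kif11 at chr19:37376232-37376381 (plus) and Ccnb1 at chr13:100786487-100786636 (minus).
Cenpt: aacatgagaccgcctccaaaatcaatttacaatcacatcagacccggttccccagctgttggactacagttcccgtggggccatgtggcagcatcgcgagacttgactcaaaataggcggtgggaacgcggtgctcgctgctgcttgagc
Cdk1: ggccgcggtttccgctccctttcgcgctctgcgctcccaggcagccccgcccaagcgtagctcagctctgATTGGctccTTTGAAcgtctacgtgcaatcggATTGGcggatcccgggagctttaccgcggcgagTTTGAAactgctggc
Nuf2: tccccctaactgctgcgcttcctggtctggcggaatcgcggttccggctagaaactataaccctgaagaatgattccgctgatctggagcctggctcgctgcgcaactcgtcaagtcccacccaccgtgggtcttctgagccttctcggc
Kif11: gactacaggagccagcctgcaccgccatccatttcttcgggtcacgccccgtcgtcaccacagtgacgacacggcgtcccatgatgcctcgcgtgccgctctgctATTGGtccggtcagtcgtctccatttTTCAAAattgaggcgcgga
Ccnb1: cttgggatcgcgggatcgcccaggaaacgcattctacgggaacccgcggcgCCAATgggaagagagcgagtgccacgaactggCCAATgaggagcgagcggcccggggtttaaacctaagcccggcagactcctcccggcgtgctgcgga
The Cdk1 sequence holds both kinds of element, each more than once, Kif11 holds both, Ccnb1 holds CCAAT, and Cenpt and Nuf2 hold neither. Over the whole entry of 300 bases, from 250 before to 50 after the start and on both strands, CCAAT was found in 28 of the 38 members with an entry (73.7%), against 41.1% of 27025 genes. TTTGAA or TTCGAA was found in 29 of the 38 (76.3%), against 21.7% of all genes, and both kinds in 26 (68.4%), against 8.61%. Of the 10 members with an entry that were lower in Total RNA, 5 held CCAAT and 4 held TTTGAA or TTCGAA, and of the 28 that were not called, 23 and 25 did. These matches describe letters in a window and do not show binding. Members without an entry are Aurkb, Ccna2, Cdc25c, Incenp, Kif20a, Smc4, Spc24 and Tpx2.

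Of the 5 genes of the mitotic cyclins, CDK1 and its activator, 4 were lower in Total RNA (median log2 change -0.40), 1 in Light RNA and all 5 in Heavy RNA (median -0.49). Cdk1 (chromosome 10, 69335146 to 69352912, minus strand, GRCm38) encodes the kinase that drives entry into mitosis. It had 174, 199 and 207 CPM in KO Total libraries, against 271, 267 and 267 CPM in control Total libraries. Heavy RNA held 302, 373 and 327 CPM in KO Heavy libraries, against 553, 497 and 503 CPM in control Heavy libraries. KO and control values did not overlap in either fraction, and the log2 changes were -0.48 (SE 0.11, limma adjusted p = 0.00507) and -0.64 (SE 0.11, limma adjusted p = 0.000473). In Light RNA, with 201, 164.5 and 157 CPM in KO Light libraries, against 169, 145 and 154 CPM in control Light libraries, the groups overlapped and Cdk1 was not called (0.15, SE 0.11).

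Ccna2 encodes cyclin A2, which acts with CDK1 and CDK2 from S phase into early mitosis. Its level was 161, 190.0 and 176 CPM in KO Total libraries, against 327, 280.4 and 258 CPM in control Total libraries. In Light RNA it had 171, 155 and 158 CPM in KO Light libraries, against 229.5, 213 and 260.3 CPM in control Light libraries. The Heavy levels were 136, 205 and 226 CPM in KO Heavy libraries, against 296, 343 and 360.4 CPM in control Heavy libraries. Every KO library lay below every control library of its fraction, with log2 changes of -0.71 (SE 0.16, limma adjusted p = 0.00327) in Total, -0.53 (SE 0.16, limma adjusted p = 0.0137) in Light and -0.84 (SE 0.16, limma adjusted p = 0.000739) in Heavy RNA. The Light call was lost without control Light library 3 (-0.45, limma adjusted p = 0.0622, within 0.000847 to 0.0622 over its alternatives). Exons of Ccna2 overlap those of Exosc9 over 510 of 4083 bases, and the sources used here do not say whether reads were counted by strand, so the values of the 13 members with overlapping exons are uncertain to that extent.

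Ccnb1 and Ccnb2 encode the B-type cyclins that activate CDK1 at mitotic entry. Ccnb1 had 157, 193 and 181 CPM in KO Total libraries, against 246, 226 and 227 CPM in control Total libraries, and 244, 243 and 199 CPM in KO Heavy libraries, against 299, 318 and 330.3 CPM in control Heavy libraries. Ccnb2 had 61.4, 70.7 and 68.3 CPM in KO Total libraries, against 86.0, 86.5 and 84.1 CPM in control Total libraries, and 79.8, 105 and 106 CPM in KO Heavy libraries, against 131.5, 133 and 130.0 CPM in control Heavy libraries. No KO value of either cyclin reached a control value in these fractions. The log2 changes of Ccnb1 were -0.40 (SE 0.11, limma adjusted p = 0.0112) in Total and -0.47 (SE 0.11, limma adjusted p = 0.00354) in Heavy RNA, and those of Ccnb2 were -0.35 (SE 0.11, limma adjusted p = 0.03) and -0.45 (SE 0.11, limma adjusted p = 0.00715). In Light RNA the cyclins had changes of 0.13 (SE 0.11) and 0.02 (SE 0.11) and were not called. The Total call of Ccnb1 was lost without KO Total library 1 (-0.32, limma adjusted p = 0.062, within 0.00498 to 0.062 over its alternatives). The Total call of Ccnb2 was lost without KO Total library 1 (adjusted p = 0.118) or 3 (0.0549) and without control Total library 1 (0.0737), 2 (0.0811) or 3 (0.0625), within 0.00364 to 0.118 over its alternatives. Its Heavy call was lost with the 6 Heavy libraries fitted alone (adjusted p = 0.0782), within 0.000884 to 0.0782 over its alternatives. The fifth gene, the CDK1-activating phosphatase Cdc25c, was lower in Heavy RNA (-0.49, SE 0.13, limma adjusted p = 0.0116), and its exons overlap Gm3550.

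Of 6 genes of the mitotic kinases and the chromosomal passenger complex, which corrects faulty attachments, 2 were lower in Total and in Heavy RNA, Aurkb and Birc5. Aurkb, the catalytic kinase of that complex, had 43.2, 59.8 and 62.3 CPM in KO Total libraries, against 94.15, 102 and 105 CPM in control Total libraries. Its Heavy values were 75.2, 97.0 and 90.65 CPM in KO Heavy libraries, against 176, 183 and 182 CPM in control Heavy libraries. The groups stood well apart, with log2 changes of -0.87 (SE 0.13, limma adjusted p = 0.000127) and -1.04 (SE 0.13, limma adjusted p = 2.1e-05), and both calls held in each of the 17 alternatives run. In Light RNA, with 51.1, 54.6 and 55.9 CPM in KO Light libraries, against 76.3, 62.6 and 63.6 CPM in control Light libraries, KO values also lay below control values, without a call (-0.32, SE 0.13, limma adjusted p = 0.0685).

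Birc5 (survivin), the passenger subunit that brings the complex to centromeres, was lower in all 3 fractions. In Total RNA it had 77.9, 124 and 122.5 CPM in KO Total libraries, against 226, 206 and 210.2 CPM in control Total libraries. Its polysome levels were 108, 181.5 and 175 CPM in KO Light libraries, against 362, 353 and 385 CPM in control Light libraries, and 34.9, 84.0 and 99.7 CPM in KO Heavy libraries, against 166, 146 and 143 CPM in control Heavy libraries. KO library 1 was the lowest of each fraction, and no KO value reached a control value. The log2 changes were -1.01 (SE 0.29, limma adjusted p = 0.0178) in Total, -1.27 (SE 0.29, limma adjusted p = 0.00263) in Light and -1.18 (SE 0.29, limma adjusted p = 0.00613) in Heavy RNA. The Total call was lost without KO Total library 1 (adjusted p = 0.0949) or control Total library 1 (0.0554), within 1.94e-05 to 0.0949 over its alternatives, and the Heavy call with the 6 Heavy libraries fitted alone (0.08), within 3.71e-05 to 0.08 over its alternatives.

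The other genes of this group, Aurka, Plk1, Incenp and Cdca8, were not called in Total RNA, with log2 changes of -0.37 for the passenger scaffold Incenp to -0.17 for Plk1. Plk1, a kinase of centrosome maturation and mitotic entry, was higher in Light RNA (0.47, SE 0.15, limma adjusted p = 0.0195), where KO values lay above control values.

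Of 5 spindle assembly checkpoint genes, Mad2l1 was lower in all 3 fractions, Bub1b and Bub3 were higher in Light RNA, and the checkpoint kinases Bub1 and Ttk were not called. MAD2, the product of Mad2l1, is the checkpoint protein that captures CDC20. Mad2l1 had 73.5, 84.1 and 70.2 CPM in KO Total libraries, against 132, 109.6 and 101 CPM in control Total libraries. On polysomes the levels were 74.4, 68.8 and 61.6 CPM in KO Light libraries, against 96.7, 91.2 and 107 CPM in control Light libraries, and 60.3, 96.6 and 94.25 CPM in KO Heavy libraries, against 134, 136.5 and 142 CPM in control Heavy libraries. The groups did not overlap in any fraction, and the log2 changes were -0.57 (SE 0.16, limma adjusted p = 0.0116) in Total, -0.52 (SE 0.16, limma adjusted p = 0.0137) in Light and -0.74 (SE 0.16, limma adjusted p = 0.00183) in Heavy RNA. The Total call was lost without control Total library 1 (-0.47, limma adjusted p = 0.0631, within 0.00117 to 0.0631 over its alternatives). The Light call was lost without KO Light library 3 (adjusted p = 0.0567) or control Light library 3 (0.0575), within 0.001 to 0.0575 over its alternatives.

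Bub3, a scaffold of checkpoint complexes, had 147, 108 and 109 CPM in KO Light libraries, against 99.05, 87.2 and 94.7 CPM in control Light libraries. The other fractions had 217, 227 and 212 CPM in KO Heavy libraries, against 276, 259 and 259 CPM in control Heavy libraries, and 122, 124 and 132 CPM in KO Total libraries, against 139, 141 and 147 CPM in control Total libraries. KO values lay above control values in Light RNA and below them in Total and Heavy RNA. The log2 change was 0.36 (SE 0.11, limma adjusted p = 0.0135) in Light RNA, and in Total and Heavy RNA Bub3 was not called, with changes of -0.17 (SE 0.11) and -0.27 (SE 0.11). The Light call was lost without KO Light library 1 (adjusted p = 0.0748) or control Light library 2 (0.0627). It was also lost after median-of-ratios scaling (0.412) and with the 6 Light libraries fitted alone (0.0739), within 0.00688 to 0.412 over its alternatives. Bub1b, which encodes the checkpoint protein BUBR1, was higher in Light RNA by 0.45 (SE 0.14, limma adjusted p = 0.016) on the log2 scale.

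Among 4 genes that drive anaphase, Pttg1, which encodes securin, the inhibitor of separase, was lower in all 3 fractions. It had 76.3, 84.6 and 84.7 CPM in KO Total libraries, against 118, 118 and 109.8 CPM in control Total libraries. Its polysome levels were 103, 126 and 100.2 CPM in KO Light libraries, against 176, 157 and 181 CPM in control Light libraries, and 57.5, 103 and 106 CPM in KO Heavy libraries, against 165, 150.3 and 137 CPM in control Heavy libraries. No KO value reached a control value, and the log2 changes were -0.49 (SE 0.18, limma adjusted p = 0.0495) in Total, -0.65 (SE 0.18, limma adjusted p = 0.00787) in Light and -0.81 (SE 0.18, limma adjusted p = 0.00234) in Heavy RNA. The Total call lay at the threshold and was lost without any single KO Total library (adjusted p = 0.144, 0.0845 and 0.0829 for libraries 1 to 3) or control Total library (0.118, 0.117 and 0.0805), within 0.00371 to 0.144 over its alternatives. It was also lost with the filter loosened to genes above 0 in at least 1 library (0.0582), by limma without trend or robust variances (0.0571) and with a replicate block across genotypes (0.0538). The Heavy call was lost with the 6 Heavy libraries fitted alone (0.0723), within 0.000189 to 0.0723 over its alternatives.

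Espl1, separase itself, which cuts the cohesin that joins sister chromatids, had 35.6, 60.6 and 74.3 CPM in KO Total libraries, against 79.9, 82.6 and 103 CPM in control Total libraries. KO values lay below control values but ranged widely, and Espl1 was not called (-0.68, SE 0.26, limma adjusted p = 0.0603). Cdc20 was higher in Light RNA (0.46, SE 0.13, limma adjusted p = 0.01), and the APC/C ubiquitin-conjugating enzyme Ube2c was called in no fraction.

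Centromere and outer kinetochore genes had the lowest median log2 change of the role groups in Total RNA, -0.54 over 8 genes. In Total RNA 3 of the 8 were lower (Cenpt, Nuf2 and Spc24), in Light RNA 4 (Cenpa, Nuf2, Spc24 and Spc25) and in Heavy RNA 3 (Cenpt, Nuf2 and Spc24), and none was higher. Of the 4 subunits of the NDC80 complex, Nuf2 and Spc24 were lower in all 3 fractions and Spc25 in Light RNA (-0.58, SE 0.16, limma adjusted p = 0.00919), while Ndc80 was called in none (-0.21 (SE 0.20), 0.16 (SE 0.20) and -0.09 (SE 0.20) in Total, Light and Heavy RNA). Whether Ndc80 differs from its partners was not tested.

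Spc24 (chromosome 9, 21755434 to 21760446, minus strand), the subunit at the kinetochore end of that complex, had the lowest log2 change of the 46 in each fraction. It had 24.7, 24.8 and 25.4 CPM in KO Total libraries, against 50.3, 56.7 and 58.9 CPM in control Total libraries. On polysomes the levels were 32.2, 33.8 and 30.6 CPM in KO Light libraries, against 88.65, 79.9 and 75.2 CPM in control Light libraries, and 16.7, 22.4 and 27.4 CPM in KO Heavy libraries, against 74.7, 73.45 and 61.9 CPM in control Heavy libraries. The highest KO value of each fraction lay well under the lowest control value. The log2 changes were -1.11 (SE 0.14, limma adjusted p = 2.03e-05) in Total, -1.31 (SE 0.14, limma adjusted p = 2.56e-06) in Light and -1.64 (SE 0.14, limma adjusted p = 3.78e-07) in Heavy RNA, and all 3 calls held in each of the 17 alternatives run.

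Nuf2, which pairs with NDC80 at the microtubule end, had 25.15, 29.0 and 24.9 CPM in KO Total libraries, against 49.3, 40.7 and 35.9 CPM in control Total libraries. In the polysome fractions it had 12.9, 10.4 and 12.5 CPM in KO Light libraries, against 17.3, 18.7 and 23.7 CPM in control Light libraries, and 14.2, 14.35 and 13.7 CPM in KO Heavy libraries, against 17.5, 24.7 and 28.7 CPM in control Heavy libraries. No KO value reached a control value, and control Total library 1 was the highest. The log2 changes were -0.64 (SE 0.17, limma adjusted p = 0.00827) in Total, -0.69 (SE 0.17, limma adjusted p = 0.00345) in Light and -0.68 (SE 0.17, limma adjusted p = 0.00513) in Heavy RNA. With the 6 Heavy libraries fitted alone the Heavy call was lost (-0.68, limma adjusted p = 0.053, within 0.000304 to 0.053 over its alternatives).

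Cenpt encodes a centromere protein that binds chromatin at its C terminus and the NDC80 complex at its N terminus. It had 29.05, 33.55 and 34.1 CPM in KO Total libraries, against 48.6, 58.5 and 55.15 CPM in control Total libraries. Its polysome levels were 28.7, 34.9 and 32.15 CPM in KO Heavy libraries, against 82.1, 89.4 and 82.6 CPM in control Heavy libraries, and 28.3, 29.1 and 37.0 CPM in KO Light libraries, against 40.7, 38.4 and 33.5 CPM in control Light libraries. The groups were far apart in Heavy RNA, apart in Total RNA and overlapping in Light RNA. The log2 changes were -1.38 (SE 0.12, limma adjusted p = 4.79e-07) in Heavy, -0.73 (SE 0.12, limma adjusted p = 0.00029) in Total and -0.25 (SE 0.12, limma adjusted p = 0.112) in Light RNA, and the Total and Heavy calls held in each of the 17 alternatives run.

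Cenpa, the histone variant that marks the centromere, was lower in Light RNA (-0.79, SE 0.23, limma adjusted p = 0.0121). In Total and Heavy RNA its changes of -0.55 (SE 0.23) and -0.38 (SE 0.23) were not called. The kinetochore motor Cenpe and its partner Cenpf were called in no fraction, with log2 changes of -0.54 (SE 0.24) and -0.33 (SE 0.23) in Total RNA.

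**Figure D2:**
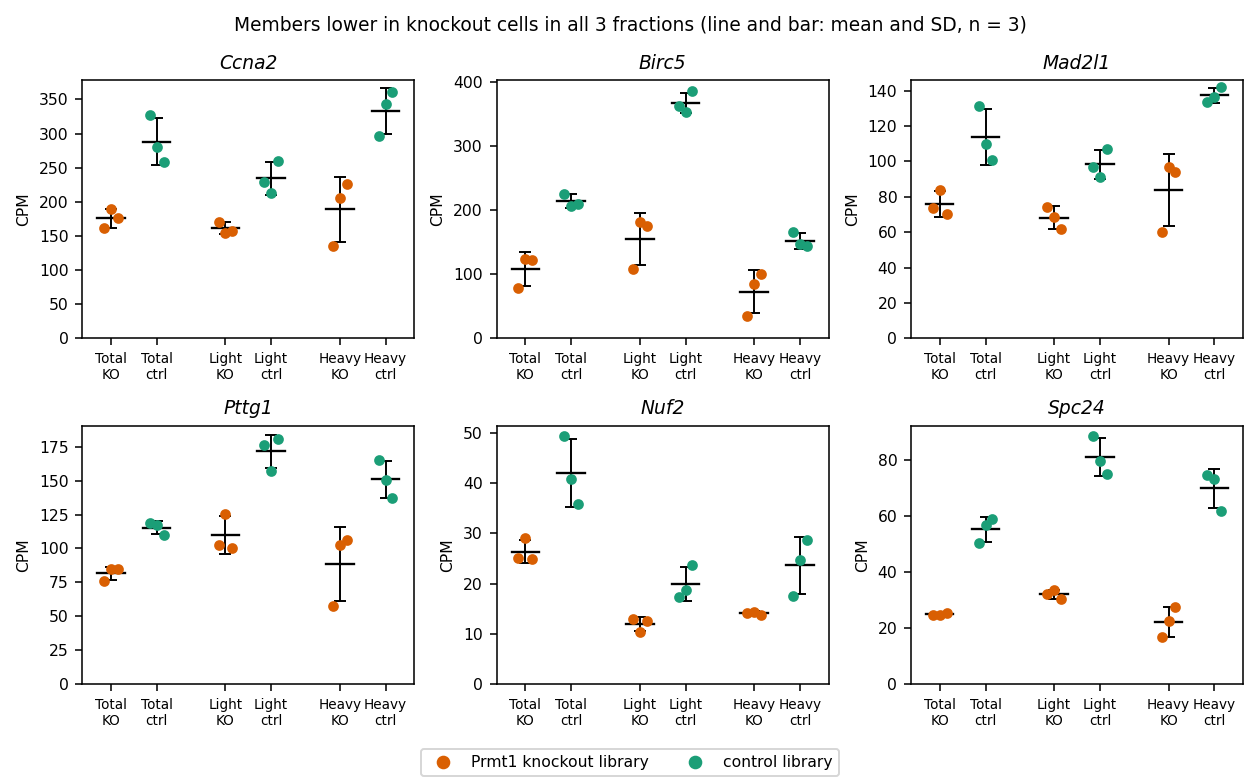
CPM in each library of the 6 genes called lower in KO cells in Total, Light and Heavy RNA. Points are the 3 KO libraries, left of the 3 control libraries (ctrl) of the same fraction, and lines with bars are the mean and SD; in all 6 genes and 3 fractions no KO point reaches a control point, as for Spc24 with 24.7 to 25.4 CPM in KO and 50.3 to 58.9 CPM in control Total libraries.

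Of 6 spindle motors and microtubule binders, Kif11 was lower in Total RNA, Tpx2 was higher in Light RNA, and none was called in Heavy RNA. Kif11, the motor that pushes spindle poles apart, had 20.8, 22.35 and 20.9 CPM in KO Total libraries, against 41.5, 31.9 and 28.3 CPM in control Total libraries. The groups did not overlap, with control Total library 1 well above the other controls, and the log2 change was -0.62 (SE 0.16, limma adjusted p = 0.00841). Without control Total library 1 the call was lost (-0.47, limma adjusted p = 0.0528, within 0.00125 to 0.0528 over its alternatives). Tpx2, a spindle assembly factor that activates Aurora A, was higher in Light RNA by a log2 difference of 0.39 (SE 0.14, limma adjusted p = 0.0398). The depolymerizing motor Kif2c, the chromokinesin Kif4, Nusap1 and Hmmr were called in no fraction, with Total log2 changes of -0.41 (Kif2c) to -0.21 (Hmmr).

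Of 6 central spindle and cytokinesis genes, Racgap1 was lower in Total and Heavy RNA and higher in Light RNA, Prc1 was higher in Light RNA, and Kif20a, Kif23, Ect2 and Anln were not called. Racgap1 and Kif23 encode the centralspindlin complex that directs furrow formation. Racgap1 had 197, 233.5 and 239 CPM in KO Total libraries, against 278, 273.5 and 287 CPM in control Total libraries. On polysomes the levels were 302, 357 and 309 CPM in KO Heavy libraries, against 400.5, 426 and 447.5 CPM in control Heavy libraries, and 199, 171 and 196 CPM in KO Light libraries, against 158.5, 148 and 154 CPM in control Light libraries. KO values lay below control values in Total and Heavy RNA and above them in Light RNA. The log2 changes were -0.33 (SE 0.10, limma adjusted p = 0.0251) in Total, -0.40 (SE 0.10, limma adjusted p = 0.00724) in Heavy and 0.29 (SE 0.10, limma adjusted p = 0.0308) in Light RNA. The Total call was lost without KO Total library 1 (adjusted p = 0.128) or control Total library 1 (0.0595), 2 (0.0542) or 3 (0.0797), within 0.00889 to 0.128 over its alternatives. The Heavy call was lost with the 6 Heavy libraries fitted alone (0.0651), within 0.00101 to 0.0651 over its alternatives. The Light call was lost in 8 of 17 alternatives, among them median-of-ratios scaling (0.684) and leaving out KO Light library 1 (0.0996) or 3 (0.0896) or control Light library 1 (0.0503), 2 (0.0965) or 3 (0.068), within 0.0131 to 0.684 over its alternatives. Prc1, which bundles antiparallel microtubules at the midzone, stood 0.65 (SE 0.16, limma adjusted p = 0.00491) higher in Light RNA on the log2 scale, and its exons overlap Rccd1 over 911 of 8225 bases.

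Of 6 condensin, topoisomerase and chromosome surface genes, none was called in Total RNA, and Ncapd2 and Top2a were higher in Light and Heavy RNA. Ncapd2, a subunit of the condensin that compacts mitotic chromosomes, had 135, 147 and 170.1 CPM in KO Light libraries, against 105, 92.1 and 87.1 CPM in control Light libraries. Heavy RNA held 369.7, 231.5 and 215 CPM in KO Heavy libraries, against 174, 182 and 204.5 CPM in control Heavy libraries, with KO library 1 above the rest. KO values lay above control values in both, and the log2 changes were 0.67 (SE 0.17, limma adjusted p = 0.00573) in Light and 0.50 (SE 0.17, limma adjusted p = 0.0378) in Heavy RNA. The Heavy call was lost in 7 of 17 alternatives, among them leaving out KO Heavy library 1 (adjusted p = 0.174) or control Heavy library 1 (0.12) or 2 (0.0944), within 0.0111 to 0.204 over its alternatives, and both calls were lost after median-of-ratios scaling and with the length trend removed.

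Top2a, the topoisomerase that untangles sister DNA, had 52.6, 52.7 and 51.3 CPM in KO Light libraries, against 36.9, 43.2 and 39.9 CPM in control Light libraries. The Heavy levels were 97.5, 69.9 and 64.3 CPM in KO Heavy libraries, against 48.5, 58.5 and 57.1 CPM in control Heavy libraries. KO values lay above control values in both fractions, with log2 changes of 0.38 (SE 0.13, limma adjusted p = 0.0299) and 0.47 (SE 0.13, limma adjusted p = 0.0121). The Light call was lost in 8 of 17 alternatives, among them median-of-ratios scaling (adjusted p = 0.37) and leaving out KO Light library 1 (0.0684), 2 (0.0662) or 3 (0.0551) or control Light library 1 (0.108) or 3 (0.0675), within 0.00856 to 0.807 over its alternatives. The Heavy call was lost in 4, among them median-of-ratios scaling (0.0848) and leaving out control Heavy library 1 (0.0648), within 0.00296 to 0.157 over its alternatives.

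Smc4, an ATPase of both condensins, had 31.5, 26.0 and 21.25 CPM in KO Total libraries, against 60.8, 31.9 and 26.25 CPM in control Total libraries. The groups overlapped, control Total library 1 stood apart, and Smc4 was not called (-0.50, SE 0.30, limma adjusted p = 0.239). The proliferation marker Mki67 had the widest SE of the 46, 0.57, and was called in no fraction.

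Heavy over Light ratios within a genotype compare shares of libraries, so they place each message on polysomes only relative to other messages. In KO cells 23 of the 46 genes were higher in Heavy than in Light RNA and 4 were lower, where 16.8% of all genes tested were higher and 26.8% lower, and 26.3% and 35.4% of genes averaging 1 CPM or more. In control cells 27 were higher and 4 lower, where 23.6% of all genes tested were higher and 27.1% lower, and 36.2% and 35.8% of genes averaging 1 CPM or more. After quantile normalization 32 were higher and 3 lower in KO cells, and 27 and 4 in control cells. Median-of-ratios scaling gave 30 higher and 4 lower in KO cells, and 28 and 4 in control cells. Of all calls, the lower part was 61.4% in KO cells in the main fit, 44.2% after quantile normalization and 51.2% after median-of-ratios scaling. In control cells it was 53.5%, 45.4% and 49.8%. With the highest Heavy over Light log2 differences in control cells stood Cdc20 (1.19 in KO and 1.88 in control cells), Ccnb1 (1.10 and 1.69), Plk1 (1.08 and 1.51) and Cdk1 (0.94 and 1.72). With the lowest in control cells stood Cenpa (-1.999 in KO and -2.42 in control cells), Birc5 (-1.17 and -1.27) and Ube2c (-0.70 and -0.86), all 3 with coding lengths under 750 nt. Each of these 7 genes was called in both genotypes, with SEs from 0.11 (Ccnb1) to 0.29 (Birc5).

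Whether the Heavy over Light ratio differed between KO and control cells was tested as an interaction. It was lower in KO cells for 6 of the 46 genes and higher for none, where 2.52% of all genes tested were called lower and 0.354% higher, and 4.21% and 0.388% of genes averaging 1 CPM or more. The 6 encode the kinases Cdk1 and Aurkb, cyclin B1, the checkpoint scaffold Bub3, the kinetochore protein CENP-T and Racgap1. Cenpt had 31.9 ± 3.10 CPM in Heavy and 31.5 ± 4.78 CPM in Light RNA of KO cells, against 84.7 ± 4.10 and 37.5 ± 3.63 CPM in control cells (SD, n = 3 each). Its Heavy over Light log2 difference was 0.03 (SE 0.12) in KO and 1.16 (SE 0.12) in control cells, and the interaction was -1.13 (SE 0.17, limma adjusted p = 0.0116). The interactions of the others were -0.79 (SE 0.16, limma adjusted p = 0.0223) for Cdk1, -0.73 (SE 0.19, limma adjusted p = 0.0474) for Aurkb, -0.69 (SE 0.14, limma adjusted p = 0.0235) for Racgap1, -0.63 (SE 0.15, limma adjusted p = 0.0365) for Bub3 and -0.60 (SE 0.15, limma adjusted p = 0.0467) for Ccnb1.

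Same-numbered Heavy and Light libraries deviated together, so the replicate block bears on this comparison, although KO Heavy library 3 correlated more with KO Light library 2. With the block and only the Heavy and Light libraries, the fit that rests on those pairs, 0 of the 46 were called (limma, 11 at an unadjusted p under 0.05, lowest adjusted p 0.0605). With the block in the fit of all 18 libraries 5 were called, but that block also ties the Total libraries by number, and same-numbered control Total libraries correlated by -0.647 to 0.355 with the Light and Heavy ones. Without the block, the Heavy and Light libraries fitted alone also gave 0 (limma, 10 at an unadjusted p under 0.05), and voom on the recovered reads of all 18 libraries gave 4. Leaving out control Light library 3 gave 0 calls (11 at an unadjusted p under 0.05). How many of all genes reached this unadjusted limit was not counted, so the 10 and 11 describe the members alone. KO Light library 1, control Light library 2 or any of the 3 control Heavy libraries left out gave 1, KO Heavy library 2 or 3 gave 3, and KO Heavy library 1 gave 9. Calls over all 17515 genes, 503 in the main fit, also varied widely. They were 668 with the block over all 18 libraries. On the Heavy and Light libraries alone they were 10 with the block and 8 without it. Left out, control Light library 3 gave 7, the libraries that gave 1 member gave 18 to 87, and KO Heavy library 1 gave 2011.

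**Figure D3:**
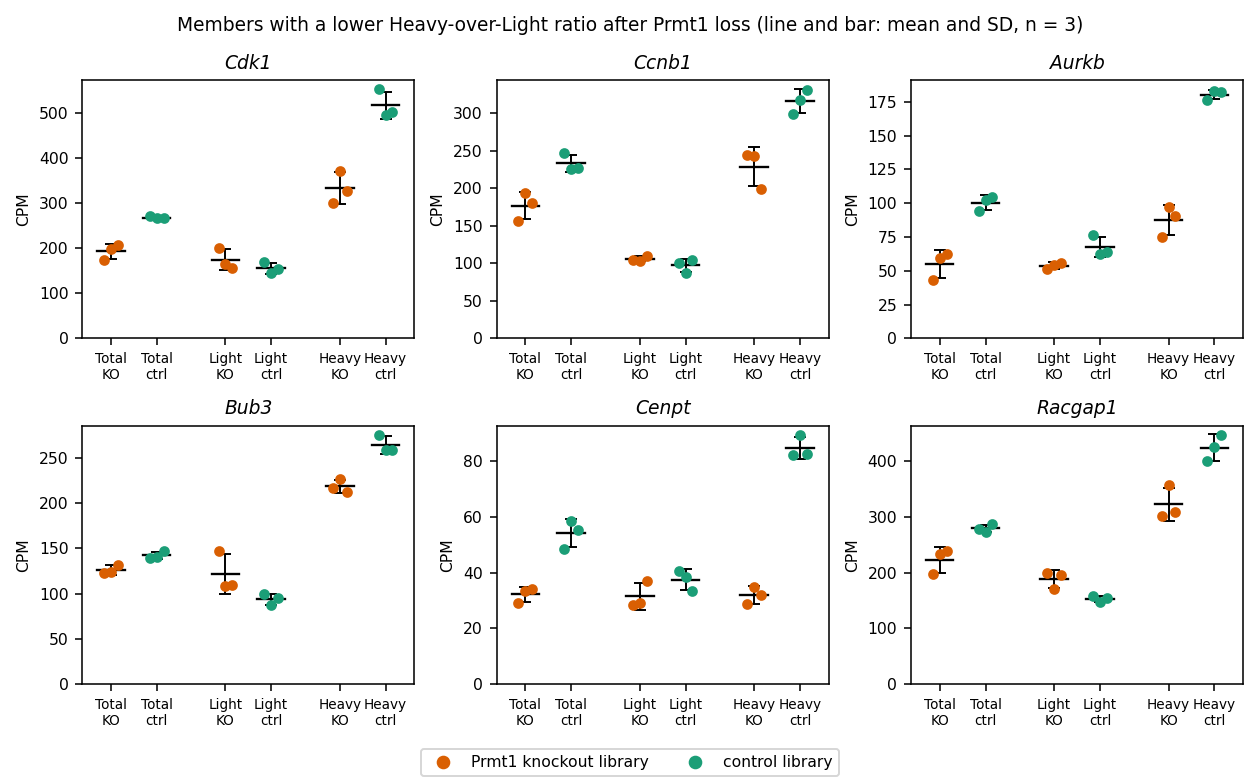
CPM in each library of the 6 genes whose Heavy over Light ratio was called lower in KO cells. Points are KO libraries, left of the control libraries (ctrl) of the same fraction, with the mean and SD as lines and bars; control Heavy points stand above KO Heavy points in all 6 genes, while in Light RNA Bub3 and Racgap1 have KO points above control points.

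For Heavy over Total and Light over Total RNA, 0 members were called between KO and control cells (limma), where 0.0114% and 0.0% of all genes tested were called. At an unadjusted p under 0.05, Heavy over Total was lower for 2 and higher for 10 of the 46, and Light over Total was higher for 22 and lower for 0. The 22 became 14 after quantile normalization and 7 after median-of-ratios scaling, and the 10 became 6 and 4. The share of all genes at this unadjusted limit was not counted, so these numbers describe the members alone. By voom on the recovered reads 0 were called in either comparison. The median log2 differences of the 46 were 0.18 and 0.40, against 0.03 and 0.13 for genes averaging 1 CPM or more. With the Light and Total libraries fitted alone, 10 of the 46 were called higher in Light over Total RNA. That fit called 1143 of all 17515 genes in either direction. Among genes averaging 1 CPM or more, refitted alone, 3 of the 46 were called higher, against 2.98% of those genes.

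Changes in Heavy RNA ran with coding length across the 46 genes. The Spearman rho was 0.80 over the 46, against 0.33 over 11033 genes averaging 1 CPM or more and a known coding length, given as a description, since genes of the same libraries are not independent. Over 17 settings it was 0.685 to 0.826 for the 46. Without KO Heavy library 1 it was 0.79 for the 46, against 0.158 over the 11033 genes. The 7 genes with a coding length under 750 nt (Birc5, Cenpa, Mad2l1, Pttg1, Spc24, Spc25 and Ube2c) had a median Heavy log2 change of -0.74, against -0.13 for all 2222 such genes, and 4 of them were called lower. The 26 genes of 750 to 3000 nt had a median of -0.16, against 0.04 for 7286 genes, and 9 were called lower. The 13 genes over 3000 nt had a median of 0.28, against 0.41 for 1525 genes, and 2 of them, Ncapd2 and Top2a, were called higher. Calls among all genes of each length band were not counted, so these calls only sort the members. In Total RNA the rho was 0.335 over the 46 and 0.081 over the 11033 genes, and in Light RNA 0.386 and 0.389, nearly the same in the main fit. Over 17 settings the rho of the 46 was 0.205 to 0.51 in Total and 0.095 to 0.475 in Light RNA. With the length trend of all genes removed, 21 of the 46 were called lower in Total RNA and 18 in Heavy RNA, and none higher in either. Calls of all genes also moved toward lower in that fit. Of all Total calls 50.1% were lower, against 39.1% in the main fit, and of all Heavy calls 50.2%, against 35.9%. How many of all genes it called was not counted, so the rise describes the members alone.

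**Figure D4:**
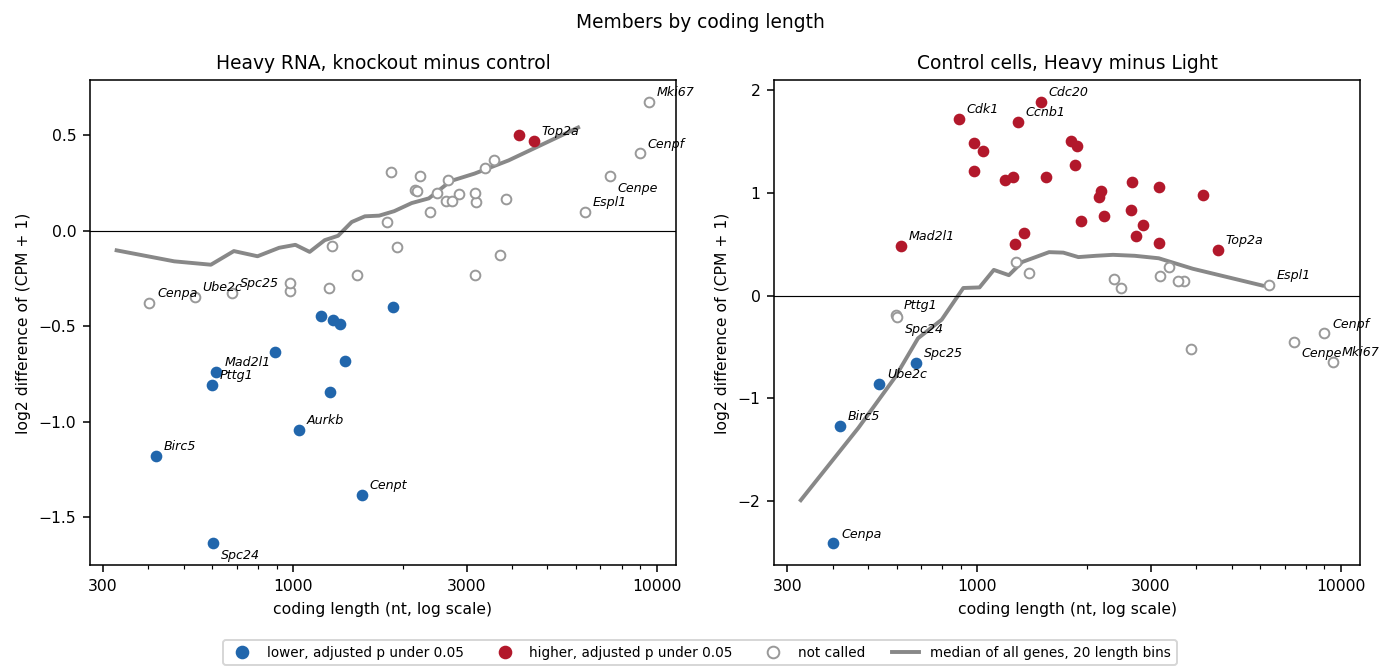
Left, log2 change of (CPM + 1) in Heavy RNA, KO minus control, against coding length in nt (log axis) for the 46 genes; right, the Heavy minus Light difference in control cells on the same axis. The grey line is the median of all genes in bins of coding length; on the left the points rise with length (Spearman rho 0.80), and on the right the short Cenpa lies lowest at -2.42 and Cdc20 highest at 1.88.

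Per kilobase of coding length, the highest members in Total RNA were Birc5 (258 ± 62.7 CPM per kb in KO and 509 ± 24.9 in control libraries, SD, n = 3 each), Cenpa (269 ± 24.9 in KO and 394 ± 11.3 in control), Ube2c (312 ± 19.7 in KO and 370 ± 23.8 in control) and Cdk1 (217 ± 19.2 in KO and 301 ± 2.58 in control). Untranslated parts are left out of this length, as for Cdk1 with 891 coding nt in a transcript of 4375 nt. The order therefore need not be that of message abundance. On this scale Birc5 ranked above the other members in control cells and below Ube2c and Cenpa in KO cells, where its spread reached theirs. The lowest on it were Mki67 (0.816 ± 0.194 in KO and 1.30 ± 0.843 in control), Cenpf (1.40 ± 0.0938 in KO and 1.80 ± 0.281 in control) and Cenpe (1.66 ± 0.115 in KO and 2.54 ± 0.748 in control).

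Other genes of the same machinery were read from 8 lists of 127 genes. Of these, 36 were lower and 1 higher in Total RNA, 25 lower and 14 higher in Light RNA, and 27 lower and 13 higher in Heavy RNA, with median log2 changes of -0.22, -0.01 and -0.08. In Total RNA this made 28.3% lower and 0.787% higher, where all genes tested had 10.3% and 16.1%, and those averaging 1 CPM or more 13.9% and 17.2%. In Light RNA the 19.7% lower stood near the 18.1% of genes averaging 1 CPM or more, and the share higher lay below their 34.4%. In Heavy RNA 21.3% were lower and 10.2% higher, where those genes had 16.3% and 24.2%. Among 51 DNA replication genes, 17 were lower and 0 higher in Total RNA, 10 lower and 16 higher in Light RNA, and 20 lower and 6 higher in Heavy RNA, or 33.3%, 19.6% and 39.2% lower, of which the Light share was near that of genes averaging 1 CPM or more. By list, lower in Total RNA were 10 of 23 other kinesins and spindle proteins, 6 of 13 mitotic entry and exit genes, 8 of 22 transcription factors, 4 of 17 inner centromere genes, 3 of 19 other outer kinetochore and checkpoint genes, 2 of 13 cohesin genes, 2 of 4 other condensin subunits and 1 of 16 APC/C genes. The shares of the outer kinetochore and checkpoint list (15.8%) and of cohesin (15.4%) were near the 13.9% of genes averaging 1 CPM or more, and that of the APC/C (6.25%) was under it.

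Of the 127, 11 were lower in all 3 fractions: the inner centromere genes Cenpm and Cenpl, the APC/C inhibitor Fbxo5, the cohesin regulator Cdca5 (sororin), the augmin subunits Haus1 and Haus4, the histone kinase Haspin, and the transcription factors Mybl2, E2f5, E2f8 and Nfyb. The share of all genes lower in all 3 fractions was not counted. Cenpm had 12.9, 13.1 and 15.2 CPM in KO Total libraries, against 29.4, 35.0 and 33.3 CPM in control Total libraries. Haus4 had 21.0, 20.5 and 24.0 CPM in KO Total libraries, against 41.0, 44.55 and 45.9 CPM in control Total libraries. KO and control values of both stood apart, with log2 changes of -1.19 (SE 0.19, limma adjusted p = 0.00017) and -0.98 (SE 0.14, limma adjusted p = 8.69e-05). The gene higher in Total RNA was Lin52, a subunit of the MuvB core, with 20.7, 20.1 and 17.5 CPM in KO Total libraries, against 13.5, 13.0 and 10.9 CPM in control Total libraries. Its KO values all lay above its control values (0.61, SE 0.12, limma adjusted p = 0.00123).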

How the data were processed

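The deposited table holds log2 values of CPM plus a pseudocount of 1, made by the authors from reads of 18 libraries, and STAR, edgeR and the genome mm10 are named in the submitters' processing notes. Which read counter was used, and whether by strand, the sources used here do not say. CPM was recovered by inverting the log2, and whole reads by the size of 1 read (100% of values came out whole, at a tolerance of 0.1), from which depths follow. Groups and replicate numbers came from the labels. All 6 groups were fitted in 1 model in limma 3.58.1 (R 4.3.3) with trended, robust variances on the deposited log2 scale, for 17515 genes above 0 in at least 3 libraries, with Benjamini-Hochberg adjusted p-values and a limit of 0.05. Fold changes on this scale understate the change of low genes. Tables and figures were made with Python 3.11.15, numpy 2.4.6, pandas 2.3.3 and matplotlib 3.10.9. Coding length is that of the longest coding transcript in GENCODE (GRCm38), known for 17400 genes, and gene coordinates and exon overlaps are from GRCm38 annotation. The fits were tested on simulated data.

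The members and lists were chosen with earlier results of these data known. Library values are printed for members called in at least 2 of the 3 fractions or in an interaction, and for the member of each role with the largest change in Total RNA. From the other mitosis lists, genes called in at least 2 of the 3 fractions may be named. Same-numbered Heavy and Light libraries correlated in their deviations from the group means (0.276 to 0.602 in KO and 0.324 to 0.412 in control cells), so their numbers were taken as pairs. KO Heavy library 3, however, correlated more with KO Light library 2 (0.493) than with KO Light library 3 (0.276). Numbers of Total libraries did not pair in control cells, with same-number correlations of -0.647, 0.355 and -0.624 with Light and -0.448, 0.165 and -0.214 with Heavy libraries, while control Light library 1 correlated by 0.688 with Total library 3, and 3 by 0.78 with 1. In KO cells Light and Total libraries correlated by 0.434 to 0.642. Numbers did not pair KO with control libraries. Alternatives were quantile normalization, median-of-ratios scaling, a pseudocount of 0.1, looser and stricter filters, limma without trend, voom on recovered reads, the libraries of a comparison alone, a replicate block, removal of the length trend, and leaving out libraries.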

Additional observations from a re-analysis of the deposited data

Results flagged for a closer look

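For 6 members the effect of KO differed between Heavy and Light RNA by a test of the difference itself, the interaction of fraction and genotype, with limma adjusted p under 0.05. The difference in log2 change, Heavy minus Light, was -1.13 for Cenpt, -0.79 for Cdk1, -0.73 for Aurkb, -0.69 for Racgap1, -0.63 for Bub3 and -0.60 for Ccnb1. In each, the KO libraries lay below the control libraries in Heavy RNA. In Light RNA the KO libraries lay above the control libraries for Racgap1 and Bub3, below them for Aurkb, and overlapped them for Cenpt, Cdk1 and Ccnb1. All 6 calls were lost when the Heavy and Light libraries were fitted alone, and without control Light library 3. Those fits called 8 and 7 of all 17515 genes, against 503 in the main fit.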

How the results depend on the processing

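Of single-gene results, 850 kept their direction and side of the threshold when 1 library was left out, 81 lost the call, 3 gained it and 38 changed sign. Under the other alternatives 1094 kept both, 53 lost the call, 33 gained it and 26 changed sign. No result that changed sign was called in either fit. The causes of the shifts below were not tested. Leaving out 1 library gave 7 to 16 members called in Total RNA, 11 to 15 in Light RNA, 14 to 20 in Heavy RNA, 0 to 9 for Heavy over Light between KO and control cells, 23 to 28 for Heavy over Light in KO cells and 28 to 33 in control cells, against 13, 17, 15, 6, 27 and 31 with all libraries. With the length trend removed 21 were called in Total RNA, and with its 6 libraries fitted alone 8 in Heavy RNA. For these fits and those leaving out 1 library, calls over all genes were counted only for Heavy over Light between KO and control cells. The median log2 change in Light RNA, 0.04, became -0.13 after quantile normalization, -0.17 after median-of-ratios scaling and -0.12 with the length trend removed.

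For Heavy over Light between KO and control cells, 3 members were called after quantile normalization, 1 after median-of-ratios scaling, 0 with the Heavy and Light libraries alone, and 11 without all KO libraries numbered 1. Of all 17515 genes these fits called 152, 49, 8 and 1872, against 503 in the main fit. For Light over Total RNA, 3 were called among genes averaging 1 CPM or more, 5 by limma without trend, 10 with the Light and Total libraries alone and 7 without all KO libraries numbered 1, against 0. Over all genes these fits called 347 of 11602, and 548, 1143 and 785 of 17515, against 0. With a replicate block, the numbers pairing Heavy with Light libraries, 5 members were called over all libraries and 0 with the Heavy and Light libraries alone, a fit added after seeing the data. Within genotypes the same block gave 27 in KO and 31 in control cells. With a replicate block across genotypes, whose numbers did not pair, the calls were 13 (Total), 16 (Light) and 15 (Heavy).

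Gene names below are followed by the fraction or ratio compared between KO and control cells. After median-of-ratios scaling, log2 values that changed sign were -0.073 for Cdk1 Light, -0.098 for Ccnb1 Light, -0.20 for Ccnb2 Light, -0.12 for Mad2l1 Light over Total, -0.071 for Espl1 Heavy and -0.036 for Smc4 Light over Total. Without all KO libraries numbered 1, log2 values that changed sign were 0.024 for Ccna2 Heavy over Total, -0.075 for Ccnb2 Light, 0.066 for Birc5 Heavy over Total, 0.065 for Mad2l1 Heavy over Light, 0.033 for Mad2l1 Heavy over Total, -0.032 for Mad2l1 Light over Total, 0.082 for Pttg1 Heavy over Light, 0.13 for Espl1 Light and -0.08 for Top2a Heavy over Light. After quantile normalization, log2 values that changed sign were -0.085 for Ccnb2 Light, 0.044 for Kif11 Heavy over Light and -0.072 for Smc4 Light over Total. With the length trend removed, log2 values that changed sign were -0.071 for Ccnb2 Light, -0.26 for Birc5 Heavy over Light, 0.06 for Birc5 Light over Total, -0.22 for Espl1 Heavy, 0.045 for Kif11 Heavy over Light, -0.081 for Smc4 Heavy and -0.10 for Smc4 Light over Total. By voom on recovered reads, log2 values that changed sign were -0.001 for Nuf2 Heavy over Light. Leaving out 1 library, the log2 ranges of those that changed sign were Ccna2 Heavy over Total -0.28 to 0.085, Ccnb1 Heavy over Total -0.15 to 0.027, Ccnb2 Light -0.075 to 0.07, Ccnb2 Heavy over Total -0.16 to 0.04, Birc5 Heavy over Light -0.19 to 0.55, Birc5 Heavy over Total -0.46 to 0.29, Mad2l1 Heavy over Light -0.33 to 0.002, Mad2l1 Heavy over Total -0.28 to 0.054, Mad2l1 Light over Total -0.056 to 0.14, Pttg1 Heavy over Light -0.31 to 0.12, Espl1 Light -0.39 to 0.13, Espl1 Heavy over Light -0.034 to 0.49, Nuf2 Heavy over Light -0.18 to 0.16, Nuf2 Heavy over Total -0.23 to 0.11, Nuf2 Light over Total -0.17 to 0.081, Kif11 Heavy over Light -0.31 to 0.029, Smc4 Heavy -0.071 to 0.30, Smc4 Light over Total -0.22 to 0.37, Top2a Total -0.093 to 0.018 and Top2a Heavy over Light -0.085 to 0.21.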

Other observations

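Among transcription factors of the mitotic programme, several were lower in KO cells in the same libraries. Mybl2, which encodes B-MYB, the factor that joins the MuvB core to activate mitotic genes, had 38.1, 64.2 and 72.2 CPM in KO Total libraries, against 132.5, 141 and 158 CPM in control Total libraries. No KO value reached a control value, and the log2 change was -1.34 (SE 0.30, limma adjusted p = 0.00313), with -1.21 (SE 0.30, limma adjusted p = 0.00413) in Light and -1.14 (SE 0.30, limma adjusted p = 0.00842) in Heavy RNA. E2f8, an atypical E2F repressor, was lower in Total RNA, by -0.85 (SE 0.17, limma adjusted p = 0.00117) on the log2 scale.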
